A study of Laxus oneistus with 16 samples.

Results

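The catalase gene *ctl-2* of the marine nematode *Laxus oneistus* was followed across 4 oxygen regimes. It was taken as 1 transcript, TRINITY_DN94512_c1_g1_i8_9dedup, of the 27984 transcripts in the *de novo* assembly. The transcript was chosen by its identifier, which the study names *ctl-2*. Its name rests on a protein match (a spider catalase, *Araneus ventricosus*), so orthology with the *Caenorhabditis elegans* gene of that name was not examined.

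Adult worms were picked from shallow Caribbean sand, together with the *Candidatus* Thiosymbion oneisti bacteria that coat them, and kept in filtered seawater in the dark for 24 h. The 4 conditions were air-bubbled seawater at 100% air saturation (O), 30% air saturation (H), nitrogen-flushed seawater at 0% (A), and the same anoxic seawater with 11 µM sulfide (AS). Each library was made from 50 pooled whole worms after ribosomal RNA removal. There were 6 O, 3 H, 4 A (numbered 1, 2, 3 and 5) and 3 AS libraries, so each value is an average over all tissues of a pool. The labels do not tie a library to a collecting trip, and trip and condition cannot be told apart here.

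Catalases are heme enzymes that split hydrogen peroxide into water and oxygen without needing another reductant. In *C. elegans*, CTL-1 is cytosolic and CTL-2 is the catalase of the peroxisome, the organelle whose oxidases make hydrogen peroxide while they burn fatty acids. Peroxiredoxins and heme peroxidases remove the same molecule, but pass its oxidizing power on to another substrate.

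Library totals ran from 9032241 to 18627740 counts (median 14861542). No 2 libraries of a condition agreed within sampling noise. In 5 libraries (A replicates 3 and 5, O replicates 2, 3 and 5) a set of 5680 transcripts, which had at most trace counts elsewhere, took 0.572% to 1.45% of the counts, against at most 0.00511% in the other 11. Results that rest on these 5 libraries are given with and without them.

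*ctl-2* was among the most heavily read transcripts in every library. It took 0.272% (AS replicate 3) to 0.558% (O replicate 1) of all counts and ranked between 6th and 16th by counts. Because a library held 29333 to 103878 *ctl-2* reads, the 95% Poisson interval was at most 1.15% of the value, and this interval covers counting error only. The overall spread between libraries was therefore far above counting error, although some pairs of libraries differed by less than that error. The replicates set the precision.

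Levels are given as CPM, the counts scaled to a common library size after trimmed mean of M-values (TMM) scaling, and they are not per transcript length. In O the lowest, median and highest *ctl-2* levels were 2709, 3455 and 5743 CPM. In H the 3 libraries had 4448, 3624 and 3160 CPM. The A libraries had 3588, 3636, 3023 and 3541 CPM, and the AS libraries had 3051, 3404 and 2795 CPM.

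O replicate 1 stood apart with the highest level of all 16 libraries, 5743 CPM, and H replicate 1 came next. The other 14 libraries lay between 2709 and 3636 CPM, and the ranges of all 4 conditions overlapped. The mean was 3744 ± 652 CPM (SD, n = 3) in H, 3645 ± 1086 (n = 6) in O, 3447 ± 285 (n = 4) in A and 3083 ± 306 (n = 3) in AS. Each neighbour in this order differed by less than the SD of the higher group except A and AS, whose ranges also overlapped. Without O replicate 1 the O mean was 3225 ± 389 CPM (n = 5), below that of A.

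**Figure D1:**
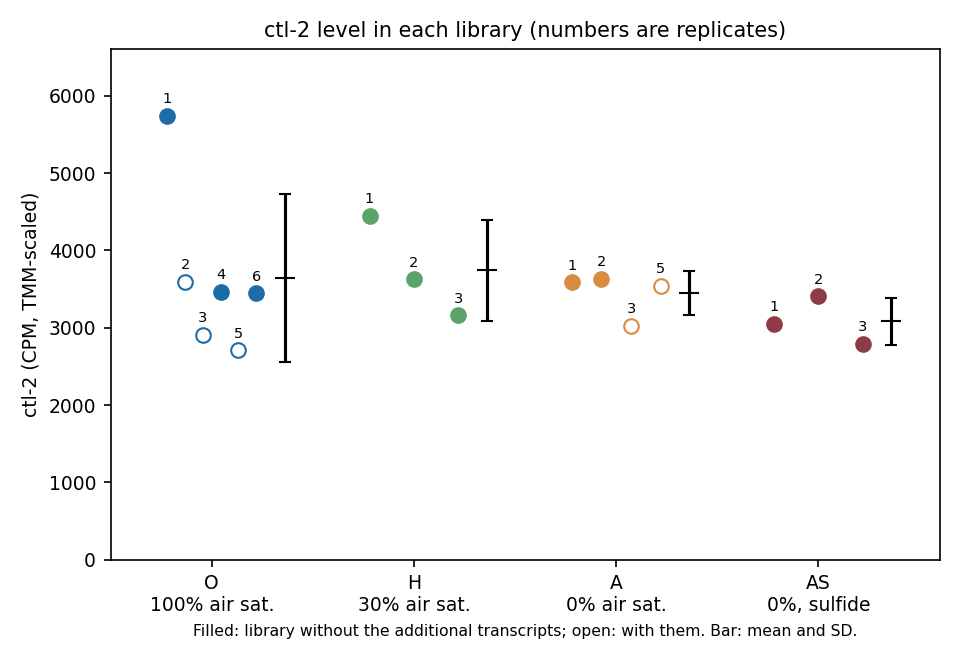
*ctl-2* level (y axis, CPM after TMM scaling) in each of the 16 libraries, by condition. Numbers are replicate labels, open points are the 5 libraries with the additional transcripts, and bars are mean and SD. O replicate 1 at 5743 CPM lies above every other library, and the 4 conditions overlap.

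No comparison of conditions reached a call for *ctl-2*. A call was set at a Benjamini-Hochberg adjusted p of at most 0.05 in edgeR's quasi-likelihood test together with a change of at least 1.5-fold. Of the 7 comparisons as designed, AS against H gave the largest difference, with *ctl-2* at 81.6% of its H level (log2 fold change -0.29, SE 0.175, 95% interval -0.67 to 0.085, edgeR quasi-likelihood adjusted p = 0.366). In that comparison 1.98% of the 17324 transcripts tested were called. *ctl-2* was 5534th of them by p, and 20.7% had an unadjusted p under 0.05. The log2 fold change was -0.12 without H replicate 1, and without the 5 libraries with additional transcripts it was -0.29, smaller in size than that of O against AS (0.46).

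Anoxia without sulfide lay between H and AS. The log2 fold change of *ctl-2* was -0.12 for A against H (SE 0.163, interval -0.47 to 0.23, edgeR quasi-likelihood adjusted p = 0.90), where 0.104% of transcripts were called and 8.14% had an unadjusted p under 0.05. Without H replicate 1 it was 0.039. Adding sulfide to anoxic seawater gave -0.18 for AS against A (SE 0.164, interval -0.53 to 0.18, edgeR quasi-likelihood adjusted p = 0.679). In AS against A edgeR's quasi-likelihood test called 0% of transcripts. An unadjusted p under 0.05 was found for 2358 (13.6%), DESeq2 called 431 and edgeR's likelihood ratio test 341.

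Full air saturation gave no single direction for *ctl-2*. The log2 fold change was -0.039 for O against H (SE 0.195, interval -0.45 to 0.37, edgeR quasi-likelihood adjusted p = 0.957), with 0% of 19093 transcripts called. There 2472 transcripts (12.9%) had an unadjusted p under 0.05, DESeq2 called 124 and the likelihood ratio test 30. The sign for *ctl-2* turned without H replicate 1 (0.10), without the 5 libraries with additional transcripts (0.17) and in 6 other refits. O against A gave 0.081 (SE 0.178, interval -0.30 to 0.46, edgeR quasi-likelihood adjusted p = 0.989), with 0.131% of transcripts called and 7.58% at an unadjusted p under 0.05. That value became -0.099 without O replicate 1.

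O against AS gave a log2 fold change of 0.24 for *ctl-2* (SE 0.197, interval -0.18 to 0.66, edgeR quasi-likelihood adjusted p = 0.619), with 0.571% of transcripts called and 16.6% at an unadjusted p under 0.05. It was 0.056 without O replicate 1 and 0.46 without the 5 libraries with additional transcripts, and neither was a call. When O and H together were set against A and AS, *ctl-2* differed by 0.18 (SE 0.144, interval -0.12 to 0.49, edgeR quasi-likelihood adjusted p = 0.695), with 0.665% of transcripts called and 12.4% at an unadjusted p under 0.05. Over the 7 comparisons the 95% intervals reached from 0.627-fold (AS against H) to 1.58-fold (O against AS), so a change of 1.5-fold was outside the interval in 5 of the 7 comparisons in either direction.

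Exact permutation tests of the mean log2 CPM gave the same picture. The smallest of the 7 two-sided exact p values was 0.171 (AS against A), the adjusted values ran from 0.64 to 0.962, and 6 libraries against 3 could not have gone below 0.0238. With 3 against 3 (AS against H) the smallest possible exact p was 0.1. With 4 against 3 (A against H, AS against A) it was 0.0571. None of these comparisons could have passed 0.05. Over all 4 conditions at once, condition accounted for 11.7% of the variance of log2 CPM (exact permutation p = 0.703 over 33633600 assignments).

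*ctl-2* varied less between libraries than most transcripts it was compared with. Its coefficient of variation over the 16 libraries was 20.8%, against a median of 26.5% among the study's 100 most abundant transcripts, where it was 35th from the lowest. That list was drawn up by the study from these same libraries. The biological coefficient of variation that edgeR fitted within conditions was 20.5% for *ctl-2* and 47.4% in common over all transcripts. The common value covers transcripts of every level, so it is not matched to *ctl-2* in abundance.

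Another transcript carried the same Trinity cluster number as *ctl-2* (TRINITY_DN94512_c1_g2_i4_9dedup) but no similarity to a known protein. Whether both come from 1 gene was not examined, and the estimated counts may divide shared reads between them, so the split is uncertain. Its lowest, median and highest level in O was 779, 1420 and 2038 CPM, and it had 1446, 1276 and 1102 CPM in H. The A libraries had 1085, 1311, 1030 and 1605 CPM and the AS libraries 1065, 1199 and 1003 CPM.

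The number of *ctl-2* reads for each read of this cluster mate was tight in AS (2.79 to 2.87) and in H (2.84 to 3.08) and wide in O (1.69 to 3.74). In A it ran from 2.21 to 3.31. None of the 7 exact permutation tests of the mean log2 ratio passed (smallest exact p = 0.2, adjusted 0.867). Those between H, A and AS could not have passed, since their smallest possible exact p was 0.0571 or 0.1. Counting the whole cluster as 1 gene gave 5088 ± 1414 CPM in O, 5019 ± 823 in H, 4704 ± 476 in A and 4172 ± 405 in AS, again with no call.

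The other catalase, *ctl-1* (TRINITY_DN54162_c0_g4_i1_4dedup), which in *C. elegans* acts in the cytosol, was also constitutively present. Its lowest, median and highest level in O was 379, 586 and 998 CPM, and H had 1017, 745 and 594 CPM. The A libraries had 781, 849, 640 and 585 CPM and the AS libraries 718, 727 and 533 CPM. As for *ctl-2*, the 4 ranges overlapped. O replicate 1 and H replicate 1 were again the highest, but here H replicate 1 was first. No comparison was called for *ctl-1*, and the largest difference was between O and H (log2 fold change -0.39, SE 0.261, interval -0.94 to 0.17, edgeR quasi-likelihood adjusted p = 0.565).

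The number of *ctl-2* reads for each *ctl-1* read was on average highest in O, with overlap between O and A. In mean log2 CPM, *ctl-2* in O differed from H by -0.070, from A by 0.039 and from AS by 0.20. For *ctl-1* the same differences were -0.43, -0.31 and -0.20. O replicates 4 and 5 had the highest ratios (8.72 and 7.15) and the lowest *ctl-1* levels of all libraries (397 and 379 CPM). A ratio of counts within a library does not depend on library scaling, but it depends on both transcript lengths, so only its changes are read. In O the lowest, median and highest ratio of *ctl-2* to *ctl-1* reads was 5.37, 5.63 and 8.72. H libraries had 4.37, 4.87 and 5.33, A libraries 4.60, 4.28, 4.72 and 6.06, and AS libraries 4.25, 4.69 and 5.25.

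Every O library had more *ctl-2* reads per *ctl-1* read than every H and every AS library, although the lowest O and the highest H ratio were only 5.37 and 5.33. Among the A libraries, replicate 5 overlapped with O. The mean log2 ratio in O exceeded that in H by 0.36 (exact permutation p = 0.0238, adjusted over 7 comparisons 0.0833) and that in AS by 0.40 (exact permutation p = 0.0238, adjusted 0.0833). A p of 0.0238 is the smallest that 6 against 3 libraries can give, and both failed the correction.

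O exceeded A by 0.35 in mean log2 ratio (exact permutation p = 0.0476, adjusted 0.0936), and O with H exceeded A with AS by 0.25 (exact permutation p = 0.0535, adjusted 0.0936). Without A replicate 5, which is among the libraries with additional transcripts, these 2 comparisons passed, with differences of 0.46 and 0.31 and an adjusted exact permutation p of 0.0417 for both. They did not pass when any other single library was left out, with adjusted exact permutation p of 0.0833 to 0.208. Without all 5 libraries with additional transcripts, the mean log2 ratio in O exceeded that in H by 0.42, that in AS by 0.46 and that in A by 0.54, and O with H exceeded A with AS by 0.28. The adjusted exact permutation p was then 0.233, 0.233, 0.35 and 0.233, and O against H or AS, then 3 libraries against 3, cannot go below an exact p of 0.1. H, A and AS differed from each other by 0.05 or less, with exact permutation p from 0.7 to 0.971. Those comparisons could not have gone below 0.0571 (A against H, AS against A) or 0.1 (AS against H). Over the 4 conditions together, condition took 45.4% of the variance of the log2 ratio (exact permutation p = 0.0517).

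**Figure D2:**
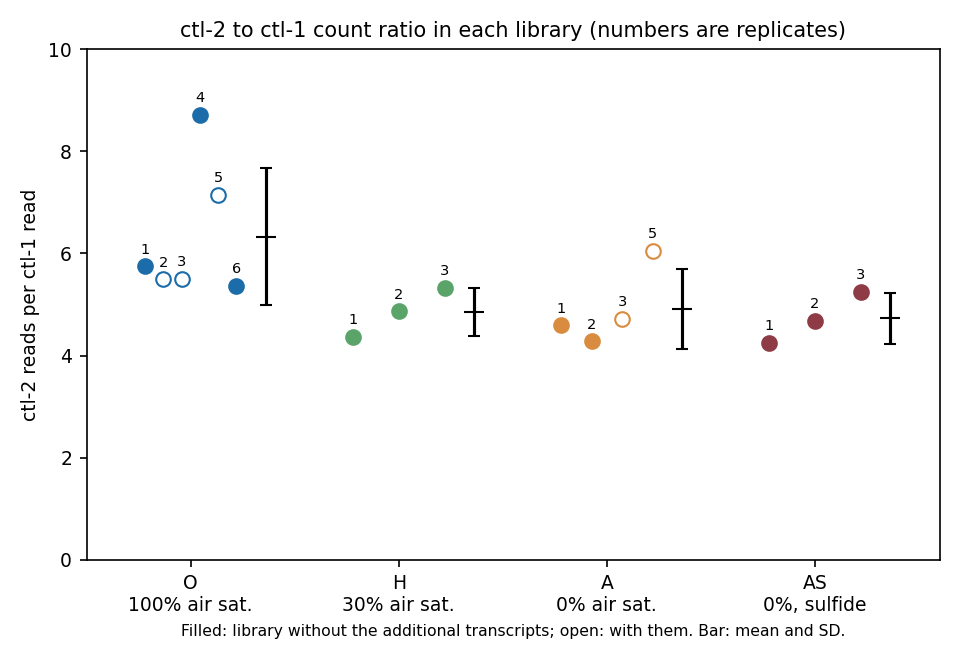
Number of *ctl-2* reads for each *ctl-1* read (y axis, no unit) in each library, by condition. Numbers are replicate labels, open points are the 5 libraries with the additional transcripts, and bars are mean and SD. The 6 O libraries lie at 5.37 to 8.72, above all H (4.37 to 5.33) and all AS libraries (4.25 to 5.25), while 1 A library reaches 6.06.

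The list of other transcripts whose products consume hydrogen peroxide held 3 and did not cover every such gene. It left out a putative glutathione peroxidase, which the study reports as higher in AS than in H. Among the 3 listed, the peroxidasin-like transcript *C46A5.4-like* moved most. Peroxidasins are secreted heme peroxidases that, in flies and vertebrates, cross-link collagen of the basement membrane. Its lowest, median and highest level in O was 1433, 2306 and 2824 CPM, and H had 2247, 1537 and 2243 CPM. The A libraries had 1171, 1282, 2189 and 733 CPM and the AS libraries 912, 1123 and 1335 CPM. All AS libraries were below all H and all O libraries, while A replicate 3, a library with additional transcripts, reached into the O and H ranges.

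*C46A5.4-like* was higher in O and H than in A and AS by 0.78 on the log2 scale (SE 0.204, interval 0.35 to 1.21), but this was not a call at an edgeR quasi-likelihood adjusted p of 0.0972. It became one under edgeR's likelihood ratio test (adjusted p = 0.017), DESeq2 (adjusted p = 0.00510) and without A replicate 3 (adjusted p = 0.0193). AS against H gave -0.86 (SE 0.325, adjusted p = 0.163) and O against AS 0.98 (SE 0.287, adjusted p = 0.154), both by edgeR's quasi-likelihood test. The difference between O and AS was a call under DESeq2 (adjusted p = 0.0119) and the likelihood ratio test (0.0496), in a range of 0.0119 to 0.540 over its alternatives. Over all alternatives tried, the adjusted p ranged from 0.0051 to 0.263 for oxygen present against absent.

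The peroxiredoxin transcript *prdx-2*, whose product reduces hydrogen peroxide with a cysteine thiol, had no call, like *ctl-2*. It had 274 to 494 CPM in O, 316 to 360 in H, 291 to 394 in A and 252 to 344 in AS. Its largest difference was 0.28 on the log2 scale, for O against AS (SE 0.179, interval -0.10 to 0.66, edgeR quasi-likelihood adjusted p = 0.473). By edgeR's quasi-likelihood test 0 of the 3 other peroxide transcripts were called in any of the 7 comparisons, where 0% to 1.98% of all transcripts were called, so this count says nothing particular about them. At an unadjusted p under 0.05 only *C46A5.4-like* appeared, in 4 of the 7.

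**Figure D3:**
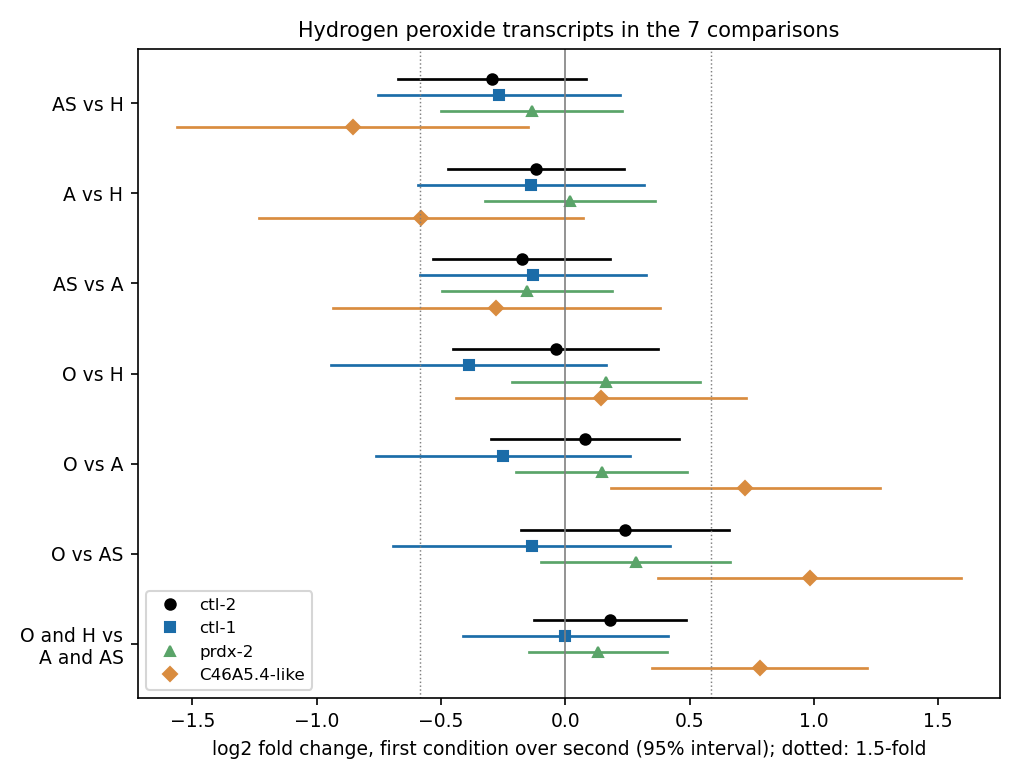
Log2 fold change (x axis, first condition over second) of *ctl-2*, *ctl-1*, *prdx-2* and *C46A5.4-like* in the 7 comparisons (y axis), with 95% intervals from edgeR's quasi-likelihood fit. Dotted lines mark 1.5-fold. The *ctl-2* intervals all include 0, and those of *C46A5.4-like* exclude it in 4 comparisons, none of them a call after adjustment.

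The heat shock transcripts that the study places in the same stress response category as *ctl-2* did not share a direction. *hsp-1*, an HSP70 chaperone, had 5208, 3107 and 3548 CPM in H and 2332, 2510 and 3252 CPM in AS. Its log2 fold change against H was -0.57 in AS, -0.70 in A and -0.70 in O, with edgeR quasi-likelihood adjusted p of 0.197, 0.383 and 0.384. The H libraries were the highest as a group, and AS replicate 3 and O replicate 1 (3403 CPM) reached into their range. DESeq2 called the difference of *hsp-1* between O and H (adjusted p = 0.0489), and the adjusted p ran up to 0.864 over the alternatives.

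*hsp-12.2*, a small heat shock protein, went the other way and was highest in AS, with 1123, 768 and 1088 CPM against 599, 368 and 503 CPM in H. The AS libraries lay above the H libraries without overlap. The log2 fold change was 1.00 (SE 0.303, interval 0.34 to 1.66), but the edgeR quasi-likelihood adjusted p was 0.0967. The study, with the same limits of adjusted p and fold change, reports *hsp12.2* as higher in AS than in H, which the main test here did not call. It was a call under DESeq2 (adjusted p = 0.0143), the likelihood ratio test (0.0319) and without the 5 libraries with additional transcripts (0.0208). Over all alternatives its adjusted p ran from 0.0127 to 0.274.

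A *hsp-60* transcript (TRINITY_DN89437_c0_g1_i3_9dedup), matched to the mitochondrial chaperonin, had 66.3, 107 and 107 CPM in AS and 44.7 to 71.3 CPM in O. AS replicate 1 lay within the O range. The log2 fold change of O against AS was -0.69 (SE 0.159, edgeR quasi-likelihood adjusted p = 0.0636). DESeq2 (adjusted p = 0.00613) and the likelihood ratio test (adjusted p = 0.00849) called it, and the adjusted p ran up to 0.389 over the alternatives. Another *hsp-60* transcript (TRINITY_DN48693_c0_g1_i1_4dedup) had 89.4 to 114 CPM in AS and 52.3 to 92.3 CPM in O. Its log2 fold change of O against AS was -0.59 (edgeR quasi-likelihood adjusted p = 0.139), and 0 of 22 alternatives called it. The largest log2 differences of the HSP90 transcripts were -0.38 for *hsp-90-1* (A against H) and -0.38 for *hsp-90-2* (O against H), neither a call.

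Of the 10 stress response and peroxide transcripts beside *ctl-2*, 0 were called in any comparison by edgeR's quasi-likelihood test, beside 0% to 1.98% of all transcripts. Their median log2 fold change was -0.25 in AS against H, beside -0.017 over all transcripts tested, and 4 of 10 had an unadjusted p under 0.05, beside 20.7% of all transcripts. In O against AS the median was -0.14 beside 0.038 over all, with 5 of 10 under 0.05 beside 16.6% of all transcripts. One of the 10, the *hsp-3* transcript, had 6.49 to 16.7 CPM in the 5 libraries with additional transcripts and 0.227 to 1.68 CPM in the other 11, so its values follow those libraries.

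The 3 sulfide detoxification entries in the study's list of most abundant proteins were matched to sulfurtransferases, enzymes of mitochondrial sulfide oxidation. All were higher in AS than in H, opposite in sign to *ctl-2*, with 0 calls by edgeR's quasi-likelihood test beside 1.98% of all transcripts. Their median log2 fold change was 0.45 beside -0.017 over all transcripts. The rhodanese-like transcript had 0.45 (SE 0.190, adjusted p = 0.199), the only one of the 3 with an unadjusted p under 0.05 in that comparison, beside 20.7% of all transcripts. The study reports *mpst-1*, a putative producer of sulfide, and the sulfide detoxification genes *ethe-1* and *cdo-1* as higher in AS. It reports *mpst-7*, thought to form thiosulfate from sulfite and glutathione persulfide, as higher in H. The shared direction of these 3 transcripts therefore does not cover all genes of sulfur metabolism.

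Across libraries *ctl-2* rose and fell with *ctl-1* and with the yolk transcripts. Vitellogenins are yolk proteins that *C. elegans* makes in the intestine and loads into oocytes, and their summed level (*vit-4*, *vit-6* and *vit-5-like*) served as a marker of yolk in a pool. The summed yolk level was 10494 to 22773 CPM in H and 5784 to 8340 CPM in AS, without overlap. It was 3950 to 18330 CPM in O and 7162 to 17988 CPM in A. H replicate 1 and O replicate 1, the libraries highest in *ctl-2*, were also the highest in yolk transcripts.

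Over the 16 libraries, log2 CPM of *ctl-2* correlated with that of the summed yolk transcripts at Pearson r = 0.716 (permutation p = 0.00074, adjusted over 3 relations 0.00126) and Spearman rho = 0.788 (permutation p = 0.00056, adjusted 0.00084). Without the 2 libraries farthest from the median yolk level (H replicate 1 and O replicate 3) r was 0.647. It was 0.697 in the 11 libraries without additional transcripts, and the 5 libraries with them were too few for a value. After each condition's mean was removed, r was 0.768. The *vit-5-like* transcript is matched to a vitellogenin in the study's protein list but to an unnamed protein in its transcript list, and with *vit-4* and *vit-6* alone, an alternative chosen after seeing the data, r was 0.715.

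The relation with *ctl-1* was of the same size, with r = 0.729 (permutation p = 0.00084, adjusted 0.00126) and rho = 0.788 (permutation p = 0.00052, adjusted 0.00084). It was 0.835 without the 2 libraries farthest from the median *ctl-1* level (O replicates 4 and 5), 0.670 in the 11 libraries and 0.840 after centring on condition means. The sum of the 7 muscle transcripts (*unc-54*, *unc-87*, *tnt-2*, *tni-3*, *mlc-2*, *mlc-3* and *lev-11*) gave r = 0.169 (permutation p = 0.518) and rho = 0.0882 (permutation p = 0.746). The sum does not stand for each member, since *tnt-2* alone had r = 0.742, and r of the other members is not given here. The summed muscle level was 11462 to 21432 CPM over all libraries, and the 4 conditions overlapped. Whole worms were sequenced, so fewer cells of a tissue and less RNA per cell cannot be told apart. The part of yolk content in the *ctl-2* differences between conditions was not tested.

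**Figure D4:**
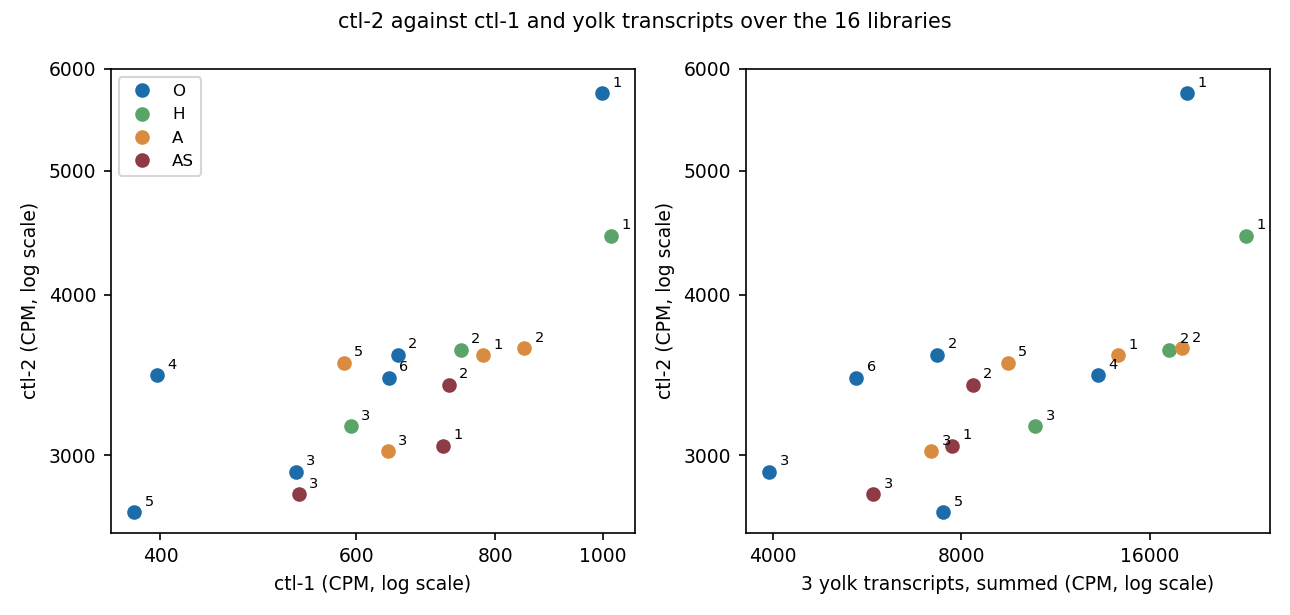
*ctl-2* level (y axis, CPM, log scale) against *ctl-1* (left) and the sum of 3 yolk transcripts (right), both in CPM on a log scale, for the 16 libraries coloured by condition and numbered by replicate. O replicate 1 and H replicate 1 lie at the top right of both panels, and Pearson r of the log2 values is 0.729 and 0.716.

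The transcripts most like *ctl-2* over the 16 libraries, by Pearson r of log2 CPM, are given by identifier only. They had no entry in the list of names used here, which covers only a small part of the assembly. The first 5 were TRINITY_DN92430_c0_g1_i3_9dedup (r = 0.863), TRINITY_DN51481_c0_g1_i1_4dedup (0.840), TRINITY_DN95431_c0_g1_i7_9dedup (0.837), TRINITY_DN45449_c0_g1_i3_4dedup (0.823) and TRINITY_DN95109_c1_g1_i1_9dedup (0.817). The order depended on the measure, since by Spearman rho these ranked 15, 2, 123, 52 and 262 among 19092 transcripts. *ctl-1* ranked 89 and the cluster mate 361 by Pearson r. All these values share the same libraries and scaling, and they are descriptions.

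Within the 100 most abundant transcripts, *ctl-2* was by Pearson r closest to *ztf-7*, matched to a C2H2 zinc finger protein (r = 0.780), to a transcript without similarity (TRINITY_DN95867_c2_g1_i1_9dedup, 0.744) and to the troponin T transcript *tnt-2* (0.742). Their Spearman rho was 0.509, 0.712 and 0.629, each below that of *ctl-1* (0.788). At the other end were ribosomal protein transcripts, *rpl-18* (r = -0.57) and *rpl-10* (-0.58), and a transcript without similarity (TRINITY_DN53480_c2_g1_i7_4dedup, -0.60). Libraries high in *ctl-2* tended to be low in these 2 ribosomal protein transcripts, which were picked for their low r. By Spearman rho the relation was weaker, at -0.365 for *rpl-18* and -0.497 for *rpl-10*. The r of other ribosomal protein transcripts is not given here.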

How the data were processed

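Expected counts per transcript were deposited by the authors, 1 file for each of the 16 libraries. Per the study's methods and the submitters' processing notes, reads were checked with FastQC, trimmed with Trimmomatic, mapped with Bowtie2 to a Trinity assembly freed of symbiont and ribosomal reads, and counted with RSEM 1.3.1. These deposited expected counts are not normalized for depth or length. They were rounded and analysed with edgeR 4.0.16 (TMM scaling, quasi-likelihood test, Benjamini-Hochberg adjustment over all transcripts tested) in R 4.3.3. The filter kept a transcript when 3 or more replicates of any condition had 10 or more reads. A, AS and H were compared in a fit of their 10 libraries, and comparisons with O used all 16. DESeq2 1.42.0 was an alternative. Fits were tested on simulated data first. log2 CPM used a prior count of 2 for the ranking of transcripts by r to *ctl-2* and for the correlations of same-numbered libraries. The permutation tests and the 3 correlations with *ctl-1*, yolk and muscle transcripts took log2 of CPM without a prior count. Exact permutation tests, 100000-resample permutation tests of the 3 correlations were run with scipy 1.17.1 and numpy 2.4.6 under Python 3.11.15, and plots were drawn with matplotlib 3.10.9.

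The libraries are separate pools of worms, and nothing states that pools came from separate collections, so p-values measure only the spread between these pools. *ctl-2*, the lists (peroxide, stress response, sulfide detoxification, yolk, muscle) and the tests were chosen with earlier results of these data known. Named transcripts were *ctl-2*, the lists, transcripts sharing a Trinity cluster number with a catalase, the 5 with the highest r to *ctl-2*, and the 3 highest and 3 lowest r among the study's 100 most abundant. Replicate numbers were not used to pair the libraries in the main tests, and whether they pair them was not settled. A further list is not reported here.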

Additional observations from a re-analysis of the deposited data

Results flagged for a closer look

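In O, replicate 1 lay far above the other 5 libraries for *ctl-2*, at 5743 CPM, with a gap to the next library of 0.708 of the whole range. The same library stood apart for *hsp-1*, at 3403 CPM (gap 0.731 of the range). In A, replicate 3 lay below the other 3 libraries for *ctl-2*, at 3023 CPM (gap 0.846 of the range), and it is 1 of the 5 libraries with additional transcripts. These are 3 flags among 34 groups of values checked by Dixon's test, and chance flags about 1 group in 20. *ctl-1*, the ratio of the catalases and the *ctl-2* cluster mate had no library that stood apart by this test.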

How the results depend on the processing

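*ctl-2* was called in 0 of 154 refits (30 settings, each in the comparisons it touches), and its sign changed in 10. For O against H the log2 fold change became 0.0285 with total counts, 0.0243 with the replicate block, 0.17 without the 5 libraries with additional transcripts (0.14 for the mean log2 CPM), 0.11 with a term for them and 0.0199 with the cluster summed. Leaving out 1 library each moved it between -0.22 and 0.10 (positive without H replicate 1, O replicate 3 or O replicate 5), A against H between -0.22 and 0.0389 (positive without H replicate 1) and O against A between -0.0992 and 0.14 (negative without O replicate 1), while the other 4 comparisons kept their sign (-0.40 to -0.12 for AS against H, -0.26 to -0.10 for AS against A, 0.056 to 0.31 for O against AS, 0.0893 to 0.23 for oxygen present against absent).

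Cluster sums raised the mean levels to 5088 (O), 5019 (H), 4704 (A) and 4172 CPM (AS). For the *ctl-2* to *ctl-1* ratio, dropping the 5 libraries turned A against H to -0.13 and AS against A to 0.0864. Leaving out 1 library each gave -0.0957 to 0.0782 for A against H, -0.13 to 0.0564 for AS against A, -0.12 to 0.0351 for AS against H, 0.26 to 0.46 for O against A and 0.18 to 0.31 for oxygen present against absent.

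Same-numbered libraries correlated at -0.36 to 0.69 (over 0.1 in 8 of 19 pairs). The A and O libraries of replicates 1, 3 and 5 gave 0.69, 0.65 and 0.63. Those of replicate 2, where only the O library has the additional transcripts, gave -0.36. Whether the numbers pair the libraries was therefore not settled. Counts of called transcripts moved widely between settings, from 0 to 1294 for AS against H (343 in the main test, 804 with the block), 0 to 137 for A against H (18), 0 to 431 for AS against A (0, 127 with the block), 0 to 124 for O against H (0), 0 to 74 for O against A (25), 13 to 557 for O against AS (109) and 24 to 271 for oxygen present against absent (127). DESeq2 gave the highest count in all but A against H. The *C46A5.4-like* difference between AS and H was a call with the block (adjusted p = 0.0404) and without the 5 libraries (adjusted p = 0.0340), in a range of 0.034 to 0.423 over all alternatives. The precision is limited by the 3 to 6 pools per condition, not by depth.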
